A study of Mus musculus with 40 samples.

Results

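Costimulatory receptors and their ligands were followed in the RNA of 40 CT26 tumors. The genes are Cd28, Cd80, Cd86, Icos, Icosl, Cd40, Cd40lg, Cd27, Cd70 and Tnfsf9, taken by symbol from a count table of 54087 genes. All 10 were found in it, each in 1 row. CT26 is a colon carcinoma line of BALB/c origin. BALB/c mice aged 6 to 12 weeks received CT26 cells under the skin, and then intraperitoneal mAbs on days 6, 9 and 12. Tumors were taken on day 13. There were 8 groups of 5 mice: an isotype control (motavizumab, mIgG2a), anti-PD-1 in an Fc-silent format, anti-TGF-β (clone 1D11), anti-GARP:TGF-β1 (clone 58A2) as a WT mIgG2a, the same clone as an FcD mIgG2a that does not bind Fcγ receptors, and the combinations of anti-PD-1 with each of the last 3. They are called the anti-TGF-β, WT and FcD combinations here. Bulk tumor fragments were sequenced, so cancer cells, immune cells and stroma share each library, and fewer cells of a type and less RNA per cell cannot be told apart.

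T cells need a costimulatory signal beside that of the T cell receptor. CD28 on T cells binds CD80 and CD86, which antigen-presenting cells carry, and CTLA-4 competes for the same ligands as an inhibitory receptor. ICOS is a relative of CD28 that activated T cells acquire, and ICOS ligand is carried by antigen-presenting cells and other cells. The other pairs belong to the TNF and TNF receptor families. CD40 on dendritic cells, macrophages and B cells is engaged by CD40 ligand on activated helper T cells and licenses these cells to present antigen. CD27 is found on most T cells and binds CD70, which is transient on activated lymphocytes and dendritic cells, and Tnfsf9 encodes 4-1BB ligand, the partner of the receptor 4-1BB (Tnfrsf9). Agonists of several of these receptors have been studied beside PD-1 blockade.

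Promoters of 3 of the 10 genes were in the RefSeq sequences used here. Those of Cd80 and Cd27 are given, because the RNAs of these genes varied in opposite directions over the tumors. Each holds 300 bases of GRCm38.p6, 250 before and 50 after the start of the RefSeq transcript, written 5′ to 3′ on the strand of the gene. Capitals mark matches, on either strand, to the AP-1 motif TGANTCA or the NFAT core GGAAA. The GAS motif TTCNNNGAA, the IRF motif (GAAA, any 2 bases, then GAAA) and the NF-κB motif were also searched. Cd80 lies on the plus strand at chr16:38458683-38458982, and this start is 3372 bases inside the GENCODE gene. Cd27 lies on the minus strand at chr6:125236978-125237277.
Cd80: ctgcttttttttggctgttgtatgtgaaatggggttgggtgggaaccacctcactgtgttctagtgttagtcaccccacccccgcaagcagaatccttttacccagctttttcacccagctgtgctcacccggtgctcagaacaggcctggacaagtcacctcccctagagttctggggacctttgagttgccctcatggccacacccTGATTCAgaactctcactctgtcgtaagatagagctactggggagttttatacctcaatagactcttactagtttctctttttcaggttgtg
Cd27: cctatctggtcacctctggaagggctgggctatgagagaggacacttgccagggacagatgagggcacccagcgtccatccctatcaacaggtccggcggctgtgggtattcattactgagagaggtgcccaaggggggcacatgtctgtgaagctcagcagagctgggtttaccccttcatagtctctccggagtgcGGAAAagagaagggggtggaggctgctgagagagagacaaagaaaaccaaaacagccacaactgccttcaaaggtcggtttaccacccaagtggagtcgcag

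The Cd80 sequence held 1 match to TGANTCA, starting 42 bases before the transcript start, and this motif was in 7.81% of 32851 promoters of the same length. The Cd27 sequence held 1 match to GGAAA, starting 52 bases before the start, a short motif found in 61.3% of promoters. The GAS, IRF and NF-κB motifs, present in 8.3%, 3.44% and 4.51% of promoters, did not occur in these windows. Each match is a description of letters only.

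In the annotation of the build, all 10 genes are protein-coding. Cd28 and Icos are neighbours on chromosome 1 with 204.6 kb between them, and Tnfsf9 and Cd70 lie 38.2 kb apart on chromosome 17. Cd80 and Cd86 are both on chromosome 16. Tnfsf9 overlaps Gm11110, a lincRNA of the opposite strand with 4929 reads over the 40 tumors, Cd27 lies inside Vamp1 of the opposite strand, and Icos overlaps Gm37039 of its own strand. The libraries were stranded, but the strand setting of the counting is not given in the sources used here, so reads from these overlaps are uncertain.

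Library totals ran from 11931730 to 20680548 counts (median 14030511). Libraries numbered 41 to 60 carried Y-linked Ddx3y and those numbered 61 to 80 carried Xist, as in male and female mice. Each group had 2 or 3 mice in each part. Cr2, Ms4a1 and Ccl21a, genes of B cells and lymph node stroma, were all above 1 CPM in 6 libraries, numbers 42, 47, 48, 68, 70 and 71, from 6 different groups, which are called libraries with lymph node RNA here. Library 71 only just met this limit, at 1.04 to 1.38 CPM, and single genes reached 2.08, 2.61 and 1.07 CPM among the other 34. Library 77, of the WT combination, had the highest summed level of the 9 T cell marker genes, 374 CPM against 184 CPM in the next library, and of the 7 macrophage genes. Library 52, of anti-PD-1 alone, had 159.1 CPM of skeletal muscle genes against 15.2 CPM in the next library. The 6 epithelial genes expected of a colon carcinoma summed to 8.79 to 344 CPM, with the top in library 71. They differed between the parts. Krt8 was at 0 to 0.742 CPM in all 20 libraries numbered 41 to 60 and at 1.74 to 172 CPM in those numbered 61 to 80. Epcam was at 0 to 0.456 and 0.637 to 39.1 CPM in the same order. All 40 tumors came from the same cell line, and these 2 genes were near 0 in 20 of them. They cannot be read as a measure of the cancer cells.

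The levels of the 10 genes differed widely. CPM are counts scaled to a common library size. Per kb of exons, Tnfsf9 was the highest, with 15.2 ± 2.85 CPM per kb (SD, n = 40). Cd80, Cd86 and Cd40 followed at 7.14 ± 1.13, 5.48 ± 1.34 and 4.79 ± 1.75 CPM per kb, and Icosl and Cd27 had 1.99 ± 0.506 and 1.68 ± 1.15 CPM per kb. Tnfsf9 exceeded Cd80 in 40 of 40 tumors and Cd40 exceeded Icosl in 38. The neighbours Cd80 and Cd86 (32 of 40), Cd86 and Cd40 (30 of 40), and Icosl and Cd27 (26 of 40) overlapped within 1 SD. Tnfsf9, Cd80, Cd86 and Cd40 stood above Cd27, Icos and Cd28 by their means on this scale.

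The remaining 4 genes were rare. Icos had 0.243 ± 0.302 CPM per kb, and Cd40lg, Cd70 and Cd28 had 0.0669, 0.0645 and 0.0567 CPM per kb, an order within their spread. Cd28 held 205 reads over the 40 tumors and was at 0 in 6. Cd40lg held 48 reads with 16 tumors at 0, and Cd70 held 30 reads with 18 tumors at 0. Cd40lg and Cd70 did not pass the filter on low counts, so 8 of the 10 genes were tested among 14760.

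**Figure D1:**
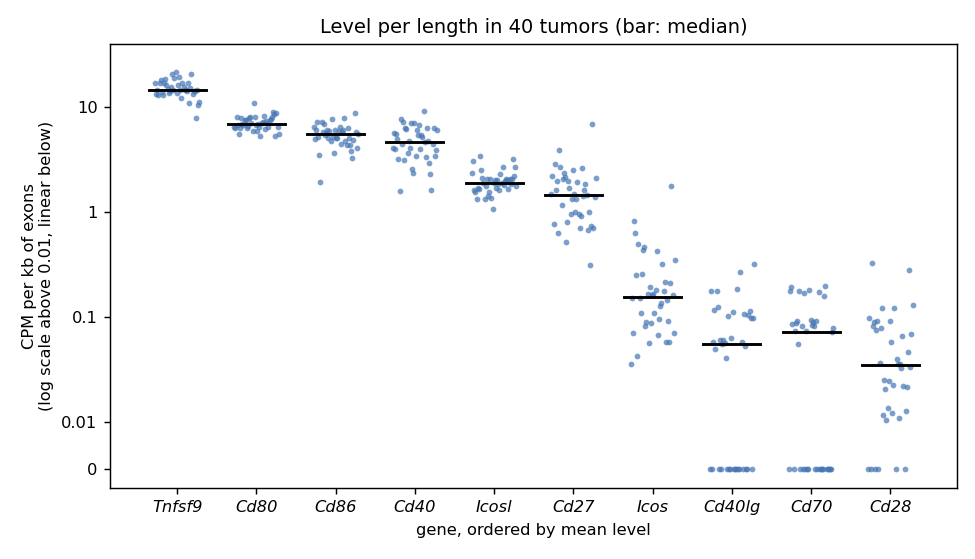
Each point is 1 of 40 tumors, and the vertical axis gives CPM per kb of exons, on a log scale above 0.01 and a linear one below. Bars are medians. Tnfsf9 has the highest median, and Cd40lg, Cd70 and Cd28 include tumors at 0.

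Cd40 had the largest share of its variance between groups of the 8 tested genes, and it was higher with the combinations than in the control tumors. In isotype control tumors its level was 7.86, 10.8, 10.9, 11.6 and 18.7 CPM in the 5 mice. With the FcD combination it was 18.9, 20.7, 21.6, 24.4 and 24.4 CPM, so that all 5 mice lay above all 5 control mice. The anti-TGF-β combination gave 18.5, 20.8, 21.1, 24.4 and 31.2 CPM, and 4 of its 5 mice exceeded every mouse of the control.

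The WT combination had 15.8, 16.1, 17.1, 21.5 and 22.96 CPM, of which 2 mice exceeded every control mouse. The mAbs given alone overlapped the control widely. Anti-PD-1 gave 5.46, 12.6, 15.2, 17.6 and 21.6 CPM, and its lowest tumor, library 47, was the lowest of all 40. Anti-TGF-β gave 7.98, 13.3, 13.7, 16.4 and 26.5 CPM, with its highest value in library 48. Anti-GARP:TGF-β1 WT gave 10.01, 13.7, 13.9, 15.1 and 19.5 CPM and FcD gave 5.51, 8.77, 11.4, 11.7 and 13.9 CPM. The FcD mAb alone thus had the lowest group mean, 10.2 ± 3.199 CPM (SD, n = 5), and the anti-TGF-β combination the highest, 23.2 ± 4.95 CPM.

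Against the isotype control, the log2 fold change of Cd40 was 0.96 (SE 0.27) with the anti-TGF-β combination, a 1.94-fold level. Its unadjusted p was 0.00125 and its adjusted p 0.126 in edgeR's quasi-likelihood test. For the FcD combination the log2 fold change was 0.88 (SE 0.27), with an unadjusted p of 0.00276 and an adjusted p of 0.225 in edgeR. For the WT combination it was 0.65 (SE 0.27), with an unadjusted p of 0.0233 and an adjusted p of 0.187 in edgeR. None passed an adjusted p of 0.05 over all genes. With the mAbs alone, the log2 fold changes ran from −0.22 to 0.38 and the smallest unadjusted p was 0.173. Cd40 had 49.1% of its variance in log2 CPM between groups, against a median of 25% over all tested genes and 17.9% from the degrees of freedom alone. The F test over the 8 groups gave an unadjusted p of 0.00104 and an adjusted p of 0.118 in edgeR.

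Within each part of the libraries, the difference in mean log2 CPM of Cd40 against the control was 1.06 within libraries 41 to 60 and 0.93 within libraries 61 to 80 for the anti-TGF-β combination. It was 1.04 within libraries 41 to 60 and 0.82 within libraries 61 to 80 for the FcD combination and 0.61 within libraries 41 to 60 and 0.73 within libraries 61 to 80 for the WT combination. Without the 6 libraries with lymph node RNA, an alternative chosen after seeing the data, the log2 fold changes were 0.82, 0.88 and 0.64 in the same order. Some settings moved the adjusted p of Cd40 below 0.05: DESeq2's Wald test gave 0.0437 for the anti-TGF-β combination, and edgeR with only the groups compared gave 0.0489 for the FcD combination. Leaving out library 53 or library 63 also lowered the adjusted p of Cd40 with the anti-TGF-β combination, below 0.05 in edgeR. The 47 alternatives gave adjusted p-values from 0.0246 to 0.366 with anti-TGF-β and anti-PD-1, and between 0.0489 and 0.599 for the FcD pair, in edgeR, DESeq2 and limma.

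Marker genes of cells that can carry CD40 were read beside it. The 7 macrophage genes summed to 1554 to 2317 CPM in control tumors, 2264 to 2832 CPM with the anti-TGF-β combination, 2102 to 3280 CPM with the FcD combination and 1694 to 7620 CPM with the WT combination. In edgeR, 1, 2 and 5 of the 7 had an unadjusted p under 0.05 upward in these groups, where 1253, 1582 and 1946 of all 14760 genes had one. The 8 dendritic cell genes summed to 225 to 297, 231 to 322, 238 to 259 and 203 to 259 CPM in the same order, with 0, 4 and 2 of the 8 upward at an unadjusted p under 0.05 and median log2 fold changes of 0.37, 0.86 and 0.27. Without library 77, the counts with the WT combination were 0 of 7 macrophage and 0 of 8 dendritic cell genes. The 7 B cell genes, of cells that also carry CD40, summed to 2.78 to 5.45, 4.77 to 110.4, 4.45 to 16.1 and 2.003 to 29.4 CPM in that order. All 7 B cell genes had an unadjusted p under 0.05 upward with the anti-TGF-β combination, whose library 68 held the top value, and none did with the other combinations. Without the libraries with lymph node RNA it was 0 of 6 tested B cell genes with the anti-TGF-β, 1 with the FcD and 2 with the WT combination. In the FcD combination all 4 adipocyte genes had one, with and without those libraries. No gene of the macrophage, dendritic cell and B cell lists was at 0 in all tumors. Their part in the level of Cd40 was not tested.

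**Figure D2:**
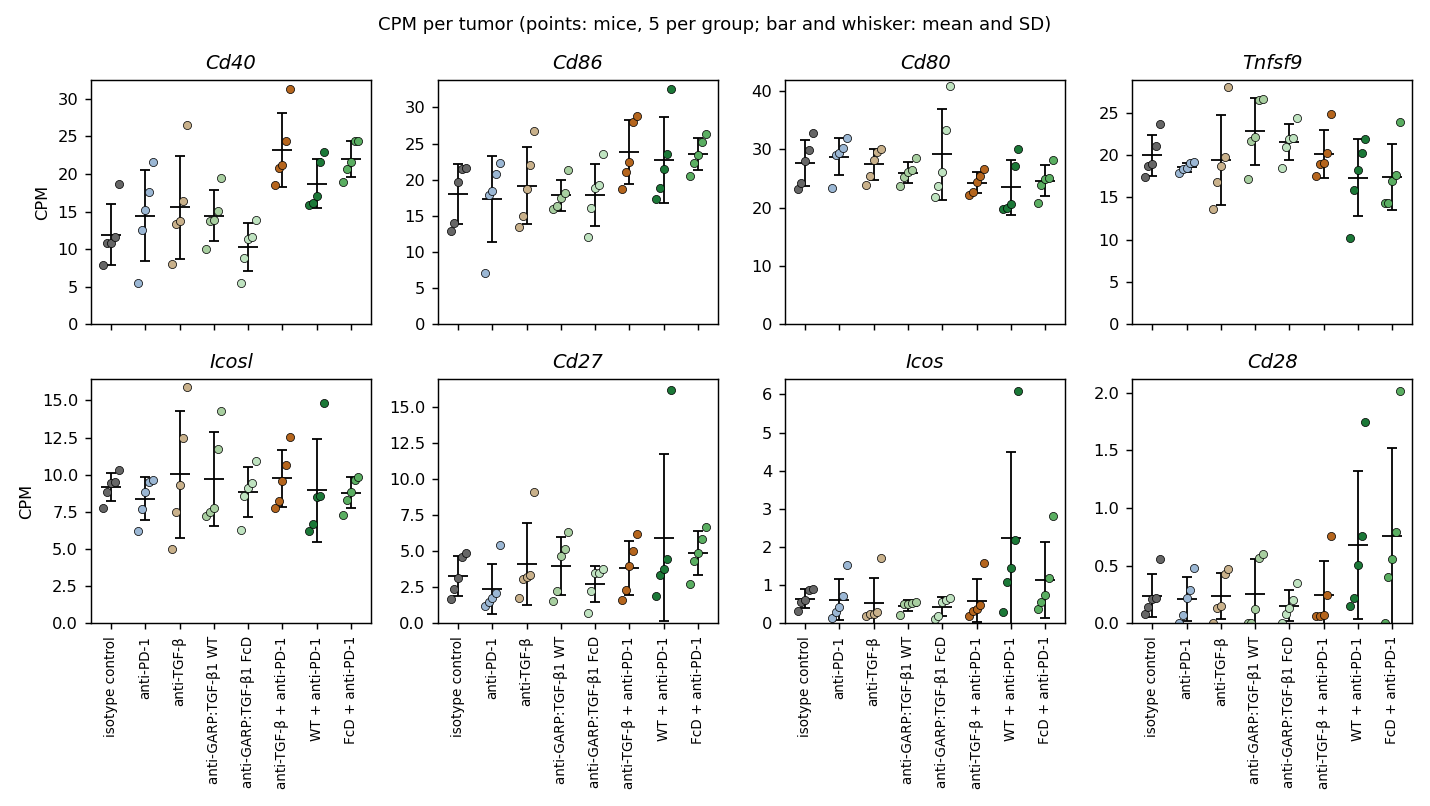
CPM (vertical axis) of the 8 tested genes by treatment group, with 1 point per mouse and the mean and SD of 5 mice as bar and whiskers. For Cd40, the 5 mice of the FcD combination lie above all 5 isotype control mice; for Icos and Cd27 one mouse of the WT combination, library 77, stands far above the rest.

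Set against anti-PD-1 alone, Cd40 had a log2 fold change of 0.68 (SE 0.27) with the anti-TGF-β combination, for an unadjusted p of 0.0164 and an adjusted p of 0.221 in edgeR. The FcD combination gave 0.60 (SE 0.27), with an unadjusted p of 0.0324 and an adjusted p of 0.458 in edgeR, and the WT combination gave 0.37 (SE 0.27), with an unadjusted p of 0.179. In mean log2 CPM, the anti-TGF-β combination differed from anti-PD-1 by 0.98 within libraries 41 to 60 and 0.49 within libraries 61 to 80, and the FcD combination by 0.96 within libraries 41 to 60 and 0.37 within libraries 61 to 80. Library 47 was among the controls of these comparisons. Without it alone the log2 fold changes with the anti-TGF-β and FcD combinations were 0.48 and 0.39. Without all 6 libraries with lymph node RNA, libraries 68 and 71 of these combinations among them, they were 0.34 and 0.40. The unadjusted p-values were then 0.155 and 0.102 in edgeR. The interaction of the FcD mAb with anti-PD-1, which asks whether the pair differs from the sum of its parts, was 0.83 (SE 0.39) for Cd40 on the log2 scale. Its unadjusted p was 0.0396 and its adjusted p 0.787 in edgeR. Leaving out any of 7 mice, or the 6 libraries with lymph node RNA, raised that unadjusted p above 0.05.

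Cd86, a ligand of CD28 on macrophages and dendritic cells, was close to Cd40 in its pattern but with smaller differences. Its level was 12.98, 14.1, 19.7, 21.5 and 21.7 CPM in control tumors and 20.6, 22.4, 23.5, 25.2 and 26.3 CPM with the FcD combination, where 1 of 5 mice fell inside the range of the controls. With the anti-TGF-β combination it was 18.7, 21.1, 22.4, 27.99 and 28.8 CPM, and 3 mice exceeded every control mouse. With the WT combination it was 17.3, 18.9, 21.5, 23.5 and 32.6 CPM, with library 77 at the top. The log2 fold changes against the control were 0.41 (SE 0.22), 0.39 (SE 0.22) and 0.34 (SE 0.22) with the anti-TGF-β, FcD and WT combinations, and the unadjusted p-values 0.0693, 0.0801 and 0.124 all missed 0.05 in edgeR. Against anti-PD-1 alone, whose tumors had 7.09, 17.96, 18.5, 20.8 and 22.3 CPM, the values were 0.46 (SE 0.22), 0.44 (SE 0.22) and 0.39 (SE 0.22). The first 2 had unadjusted p-values of 0.0416 and 0.0486 and adjusted ones of 0.28 and 0.458 in edgeR. Without library 47, with its 7.09 CPM, these 2 log2 fold changes were 0.26 and 0.24. Without all the libraries with lymph node RNA they were 0.18 and 0.24, with unadjusted p-values of 0.363 and 0.231 in edgeR. Within the parts of the libraries, the difference with the anti-TGF-β combination was 0.83 within libraries 41 to 60 and 0.17 within libraries 61 to 80, and that with the FcD combination 0.81 within libraries 41 to 60 and 0.14 within libraries 61 to 80.

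Cd80, the other ligand of CD28, had the narrowest relative range of the 10 genes, from 19.8 to 40.9 CPM over 40 tumors. Control tumors had 23.2, 24.2, 27.9, 29.9 and 32.9 CPM and those of the WT combination 19.8, 19.9, 20.6, 27.1 and 30 CPM. Of the latter, 3 mice lay below every control mouse and 2 lay inside the controls' range. The log2 fold changes of the 3 combinations against the control ran from −0.23 to −0.17, with unadjusted p-values from 0.0874 to 0.214 in edgeR. Against anti-PD-1 alone, whose tumors had 23.3, 29.1, 29.3, 30.2 and 31.9 CPM, the WT combination gave −0.29 (SE 0.13), a 0.817-fold level, with an unadjusted p of 0.0351 and an adjusted p of 0.269 in edgeR. This difference was −0.12 within libraries 41 to 60 and −0.49 within libraries 61 to 80. Leaving out any of 6 mice raised its unadjusted p above 0.05, up to 0.0981. The mean level with the FcD mAb alone was 29.2 ± 7.84 CPM, with library 58 at 40.9 CPM the highest of all tumors.

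Tnfsf9 and Icosl did not pass an unadjusted p of 0.05 in any of the 14 comparisons. Tnfsf9 had 17.4, 18.7, 18.9, 21.1 and 23.7 CPM in control tumors. With the WT combination it had 10.2, 15.9, 18.3, 20.2 and 21.9 CPM, where library 77 was the lowest of all tumors. Its log2 fold changes ran from −0.11 to 0.19 with the mAbs alone and from −0.21 to 0.01 with the combinations. Icosl had 7.79, 8.82, 9.44, 9.51 and 10.3 CPM in control tumors, and its group means lay between 8.38 (anti-PD-1) and 10.03 CPM (anti-TGF-β), with 4.13% of its variance between groups. The F test gave a p of 0.95 for Icosl, adjusted 0.966, in edgeR. Both genes overlapped between all groups and the control.

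Of the 8 tested genes, Icos, a receptor of activated T cells, had the largest log2 fold change against the control with all mice. Without library 77 that of Icos was 0.92. Above it lay 1.58 for Cd28 with the FcD combination, which rests on few reads, and 0.96 for Cd40 with the anti-TGF-β combination. Icos was low in control tumors, at 0.314, 0.554, 0.625, 0.865 and 0.896 CPM, from 4 to 14 reads per library. With the WT combination it was 0.308, 1.096, 1.46, 2.19 and 6.1 CPM, so that 4 mice exceeded every control mouse and 1 lay below them all. The highest of these, library 77, held 98 reads.

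The FcD combination gave 0.377, 0.561, 0.742, 1.195 and 2.81 CPM, with 2 mice above the controls, and the anti-TGF-β combination gave 0.195, 0.329, 0.378, 0.471 and 1.59 CPM, with 1. With anti-PD-1 alone Icos was at 0.148, 0.285, 0.442, 0.721 and 1.52 CPM. With anti-TGF-β alone, 4 mice at 0.202, 0.245, 0.245 and 0.304 CPM lay below every control mouse and the fifth, library 48, was at 1.72 CPM. The anti-GARP:TGF-β1 mAbs alone had means of 0.469 ± 0.135 (WT) and 0.433 ± 0.252 CPM (FcD) (SD, n = 5), against 0.651 ± 0.2396 CPM in the control.

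The log2 fold change of Icos with the WT combination was 1.75 (SE 0.65) against the control, a 3.37-fold level with an unadjusted p of 0.0109 and an adjusted p of 0.163 in edgeR. Without library 77 it was 0.92, with an unadjusted p of 0.159 in edgeR. Between the library parts it was 0.00 within libraries 41 to 60 and 1.89 within libraries 61 to 80 in mean log2 CPM. Against anti-PD-1 alone it was 1.82 (SE 0.66), with an unadjusted p of 0.00895 and an adjusted p of 0.231 in edgeR, and 0.98 without library 77. The interaction of the WT mAb with anti-PD-1 was 2.28 (SE 0.96), with an unadjusted p of 0.0233 and an adjusted p of 0.483 in edgeR. It was 1.45 without library 77, with an unadjusted p of 0.123 in edgeR. The F test over the 8 groups gave Icos an unadjusted p of 0.00648 and an adjusted p of 0.137 in edgeR. With the FcD and anti-TGF-β combinations the log2 fold changes against the control were 0.79 (SE 0.66) and −0.15 (SE 0.69), with unadjusted p-values of 0.24 and 0.831.

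Cd27 had 1.66, 2.36, 3.12, 4.57 and 4.86 CPM in control tumors and 1.9, 3.36, 3.79, 4.49 and 16.2 CPM with the WT combination, where library 77 stood alone above the controls. With the FcD combination it had 2.71, 4.32, 4.91, 5.85 and 6.702 CPM and 3 mice exceeded the controls. With anti-PD-1 alone it had 1.21, 1.48, 1.73, 2.14 and 5.45 CPM, 2 mice below the controls and 1, library 52, above them. Against the control, the log2 fold changes were 0.84 (SE 0.51), 0.56 (SE 0.51) and 0.21 (SE 0.51) with the WT, FcD and anti-TGF-β combinations, with unadjusted p-values of 0.107, 0.279 and 0.683 in edgeR. Against anti-PD-1 alone, the WT combination gave 1.30 (SE 0.52), with an unadjusted p of 0.0166 and an adjusted p of 0.24 in edgeR. Without library 77 this value was 0.49 (unadjusted p = 0.321), and without library 52 it was 1.85, with an adjusted p of 0.04997 in edgeR, where 538 of 14939 genes (3.6%) passed that threshold against 0 with all mice. Its adjusted p over 47 alternatives in edgeR, DESeq2 and limma ran up to 0.818. It was 0.30 within libraries 41 to 60 and 1.64 within libraries 61 to 80 in mean log2 CPM.

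Cd28 was read so rarely that its folds rest on a few reads. The 5 control tumors held 1, 2, 3, 3 and 9 reads, those of the WT combination 3, 3, 7, 12 and 28 reads and those of the FcD combination 0, 6, 7, 12 and 28 reads. All 8 groups overlapped. Libraries 44 and 77 had 28 reads each, the most of all tumors. The log2 fold changes against the control were 1.58 (SE 0.85) with FcD plus anti-PD-1 and 1.42 (SE 0.85) with WT plus anti-PD-1, with unadjusted p-values of 0.0712 and 0.103 in edgeR. Against anti-PD-1 alone the FcD combination gave 1.78 (SE 0.87), with an unadjusted p of 0.0483 and an adjusted p of 0.458 in edgeR. Leaving out 25 of the 40 mice in turn raised that unadjusted p above 0.05, and without library 44 the value was 1.02.

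Cd40lg and Cd70, the partners of CD40 and CD27, were close to the limit of detection. Summed over the 5 mice of a group, Cd40lg had 1 read in the control, 7 with anti-PD-1, 5 with anti-TGF-β, 6 and 4 with anti-GARP:TGF-β1 WT and FcD, 8 with the anti-TGF-β combination, 6 with its WT counterpart and 11 with the FcD one. All 5 mice of the FcD combination had at least 1 read, against 1 of 5 control mice. Pooled levels were 0.158 CPM (95% exact Poisson interval 0.079 to 0.283) and 0.0141 CPM (0.000356 to 0.0783). The intervals cover counting error only, and without the filter edgeR gave this difference an unadjusted p of 0.0171 and an adjusted p of 0.41.

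Cd70 had 2 reads in the control, 6 with anti-PD-1, 8 with anti-TGF-β and 7 with anti-GARP:TGF-β1 WT, each mouse of the last 2 groups having 1 or 2. With the WT combination it had 0 reads in all 5 mice, with an exact 95% Poisson upper limit of 0.0468 CPM. There, 3 reads over the group would be 0.0381 CPM. Pooled levels were 0.0929 CPM with the WT mAb alone and 0.0864 CPM with anti-PD-1 alone. The FcD mAb alone, the FcD combination and the anti-TGF-β combination had 1, 5 and 1 reads. Without the filter on low counts, edgeR gave the interaction of the WT mAb with anti-PD-1 an unadjusted p of 0.000668 and an adjusted p of 0.655 for Cd70.

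**Figure D3:**
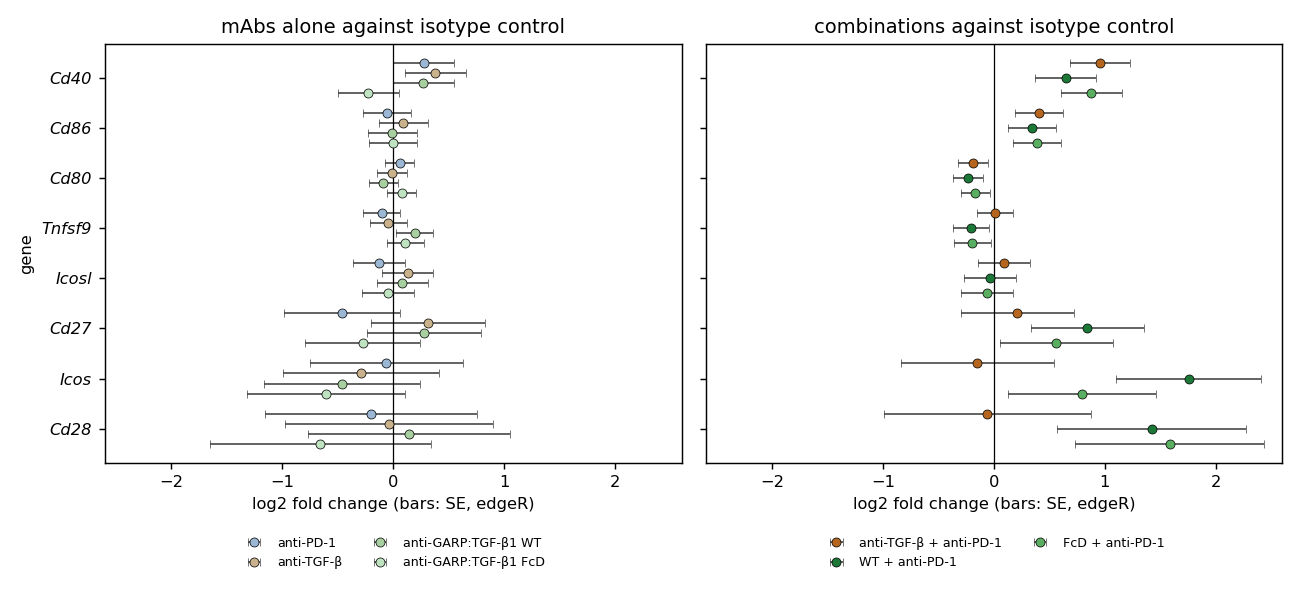
Log2 fold changes (horizontal axis; bars are SE, edgeR) of the 8 tested genes against the isotype control, for the 4 mAbs alone on the left and the 3 combinations on the right. Cd40 lies between 0.65 and 0.96 with the combinations, Cd80 between −0.23 and −0.17, and the SE of Icos and Cd28 are the widest.

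Across all comparisons, edgeR's adjusted p was under 0.05 for 0 of the 8 tested genes. Over the 14760 genes tested, 0% passed in 12 of the 14 comparisons, 0.00678% for the anti-TGF-β combination against anti-PD-1 and 0.0271% in the F test over 8 groups. At that threshold limma called 0 of the 8 in any comparison, and DESeq2 called Cd40 with the anti-TGF-β combination and Cd40 and Icos in its test over the 8 groups. DESeq2 called 139 of the 31287 genes to which it gave a p (0.444%) in the first comparison and 1256 of 31288 (4.01%) in the second. At an unadjusted p under 0.05 in edgeR, 2 of 8 genes (Cd40 and Icos) were higher with the WT combination than in the control, beside a background of 20.7% of all tested genes in either direction. With the FcD combination it was 1 of 8 (Cd40) beside 16.6%, and with the anti-TGF-β combination 1 of 8 (Cd40) beside 20.1%. No gene of the 8 was lower at this limit in these combinations. Counted upward only, 1946, 1582 and 1253 of the 14760 genes passed with the WT, FcD and anti-TGF-β combinations. With 8 genes, counts of 1 or 2 are too small to be placed above or below either background. Without library 77 the WT combination had 1 of 8, beside 5.85% of all genes in either direction. With the mAbs alone it was 0 of 8, beside 0.955% (anti-PD-1), 2.32% (anti-TGF-β), 0.969% (anti-GARP:TGF-β1 WT) and 0.474% (FcD).

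Against anti-PD-1, 3 of 8 genes passed an unadjusted p of 0.05 with the WT combination (Icos and Cd27 higher, Cd80 lower) beside 17.2% of all genes, 3 with the FcD combination (Cd28, Cd40 and Cd86 higher) beside 10.7%, and 2 with the anti-TGF-β combination (Cd40 and Cd86 higher) beside 17.1%. The count of 3 with the FcD combination was 1 with the library part as a covariate and 0 to 6 when single mice were left out, and that of 3 with the WT combination was 0 without library 77, beside 5.42% of all genes. These comparisons share the anti-PD-1 mice, libraries 47 and 52 among them. Without library 52, the counts were 4 with the WT, 6 with the FcD and 4 with the anti-TGF-β combination, beside 25.6%, 20.2% and 15.6% of all genes.

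Marker lists of other cells were tested in the same comparisons. With the WT combination against anti-PD-1, 8 of 9 T cell genes (median log2 fold change 1.57) and 6 of 7 macrophage genes were higher at an unadjusted p under 0.05, where 1650 of all 14760 genes were, and without library 77 it was 0 of 9 and 0 of 7. With the FcD and anti-TGF-β combinations it was 0 and 1 of 9 T cell genes, and 9 and 6 of 9 without library 52. All 4 tested skeletal muscle genes were lower in each combination than with anti-PD-1, and none was without library 52. The part of these lists in the values of the costimulatory genes against anti-PD-1 was not tested.

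For the interactions with anti-PD-1, 1 of 8 genes passed an unadjusted p of 0.05 for the WT mAb (Icos), 1 for the FcD mAb (Cd40) and 0 for anti-TGF-β, beside 8.75%, 4.49% and 2.3%. In the F test it was 2 of 8 (Cd40 and Icos) beside 24.7%. All 5 treated mice lay above all 5 control mice for 1 gene, Cd40, with the FcD combination, where 1.96% of all tested genes did so. No gene of the set did so with the WT or the anti-TGF-β combination, where 1.35% and 1.73% of all genes did. The median log2 fold change of the 8 genes was 0.49, 0.48 and 0.05 with the WT, FcD and anti-TGF-β combinations against the control, and 0.10 with the WT combination without library 77, beside 0.01, 0.00 and 0.02 for all tested genes.

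Over the 40 tumors, Cd27, Cd28, Icos, Cd40 and Cd86 were positively correlated with the T cell, regulatory T cell, macrophage and dendritic cell lists by rho, Cd80 and Tnfsf9 had negative rho with them, and no rho of Icosl passed an adjusted permutation p of 0.05. All correlations are of log2 CPM, which is a share of each library, with permutation p-values from 100000 permutations, 2-sided and adjusted over the 96 tests of 8 genes with 6 marker lists. Cd27 followed the mean of the 9 T cell genes most closely (r = 0.956, rho = 0.958), at the smallest p that the permutations can give, 1e-05. Without libraries 77 and 75 the values were r = 0.946 and rho = 0.951, and within libraries 41 to 60 and 61 to 80 rho was 0.973 and 0.95. Cd28 and Icos were less tightly tied to the T cell genes (r = 0.696, rho = 0.652 for Cd28, and r = 0.699, rho = 0.603 for Icos), with adjusted permutation p-values of 7.68e-05 and 0.00032 for rho. Both are rarely read.

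Cd40 and Cd86 followed the macrophage genes (Cd40: r = 0.652, rho = 0.739; Cd86: r = 0.692, rho = 0.702) and the dendritic cell genes (Cd40: r = 0.711, rho = 0.767; Cd86: r = 0.561, rho = 0.646). Cd80 ran the other way. Its rho was −0.717 with the T cell genes, −0.68 with the macrophage genes and −0.682 with the dendritic cell genes, and r was −0.686, −0.627 and −0.577. The adjusted permutation p-values of rho were 4.57e-05, 7.68e-05 and 4.57e-05. For the T cell genes the relation was rho = −0.688 without libraries 58 and 64, −0.7 after the group means were taken out, −0.562 within libraries 41 to 60 and −0.815 within libraries 61 to 80. Tnfsf9 was also lower in tumors with more macrophage RNA (r = −0.653, rho = −0.435), with r = −0.429 without libraries 77 and 59. Icosl showed no rho beyond 0.33 with any list, while its r was 0.447 with the macrophage genes and 0.489 with the dendritic cell genes (adjusted permutation p = 0.00682 and 0.00298), and 0.305 and 0.315 without libraries 48 and 59. Cd40 had rho = 0.493 with the neutrophil genes over all tumors and −0.0812 after the group means were taken out, so that relation did not hold within groups.

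**Figure D4:**
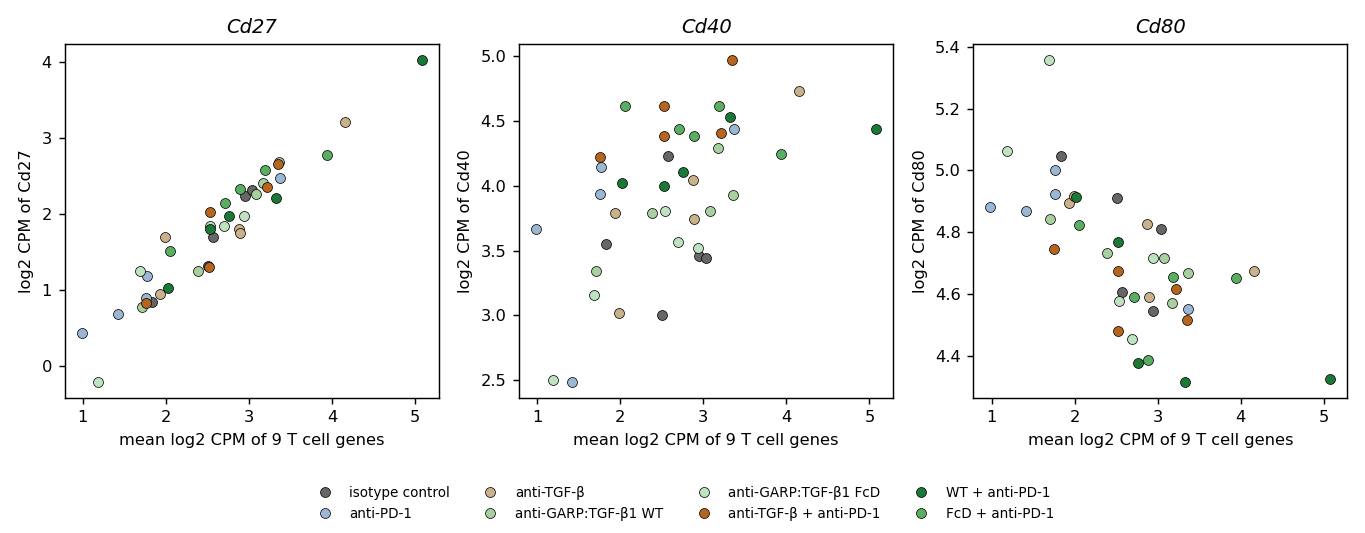
Log2 CPM of Cd27, Cd40 and Cd80 (vertical axes) against the mean log2 CPM of 9 T cell genes (horizontal axes), with 1 point per tumor coloured by group. Cd27 follows the line of T cell RNA (rho = 0.958), Cd40 does so with more spread (rho = 0.551), and Cd80 runs downward (rho = −0.717).

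**Figure D5:**
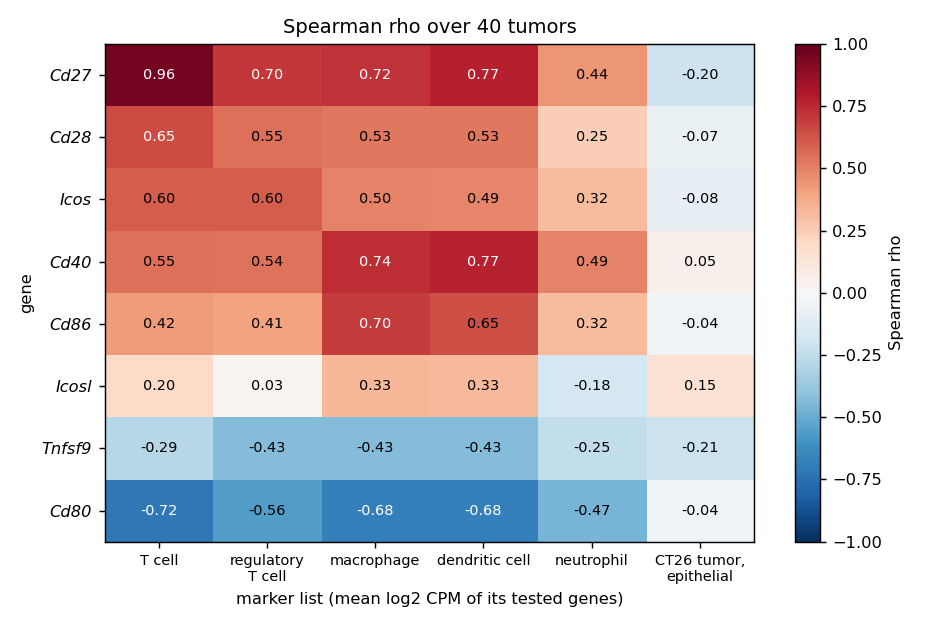
Spearman rho over 40 tumors of the log2 CPM of 8 genes (rows) with the mean log2 CPM of the tested genes of 6 marker lists (columns). Red cells are positive and blue cells negative; Cd27, Cd28, Icos, Cd40 and Cd86 are positive with the 4 leftmost lists, and Cd80 and Tnfsf9 are negative. The last column mixes library parts that differ in the epithelial genes.

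Among the genes themselves, 28 pairs were compared, with p-values adjusted over 56 tests. Cd40 and Cd86 were the closest pair (r = 0.822, rho = 0.773), and rho was 0.711 and 0.838 within the library parts. Cd28 and Icos followed (r = 0.798, rho = 0.745). Both pairs had an adjusted permutation p of 8e-05. Cd80 was negative with Cd27 (r = −0.678, rho = −0.716, adjusted permutation p = 8e-05 for rho) and with Cd40 (r = −0.586, rho = −0.56, adjusted permutation p = 0.000821). With Cd86, the ligand that shares its receptors, Cd80 had r = −0.368 and rho = −0.385 (adjusted permutation p = 0.029 for rho), with rho at −0.194 within libraries 41 to 60, −0.535 within libraries 61 to 80 and −0.227 without the group means.

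For each gene, the 3 tested genes with the highest rho over the 40 tumors are given with rho and then Pearson's r, as a description. For Cd27 they were Gimap3 (0.941, 0.933), Cd247 (0.932, 0.926), Cd3d (0.923, 0.917), of which Cd247 and Cd3d encode chains of the T cell receptor complex. For Cd40 they were Fam26f (0.923, 0.909), H2-T23 (0.917, 0.906), Rnf19b (0.907, 0.897), H2-T23 encoding a nonclassical MHC class I molecule. For Cd86 they were Lyz2 (0.857, 0.779), Arl5c (0.843, 0.834), Il10rb (0.831, 0.695), Lyz2 being the lysozyme of myeloid cells. Cd28 was closest to Il12rb2 (0.866, 0.865), Pde7b (0.862, 0.875), Pdxk (0.862, 0.841), and Icos to Idua (0.791, 0.795), Il12rb2 (0.783, 0.82), Syk (0.768, 0.851). Il12rb2 encodes a chain of the IL-12 receptor.

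Icosl was closest to Ppfia4 (0.81, 0.821), Cx3cr1 (0.714, 0.726), Madd (0.692, 0.746), Cx3cr1 being the fractalkine receptor of monocytes and macrophages. Cd80 was closest to Cd34 (0.796, 0.629), Cdkn1a (0.747, 0.771), Slc25a17 (0.738, 0.727), Cdkn1a being an inhibitor of cyclin-dependent kinases. Tnfsf9 was closest to Sertad1 (0.814, 0.846), Hao1 (0.802, 0.831), RP23-251I6.1 (0.801, 0.863). Cd40lg and Cd70 had no gene above a rho of 0.607 and 0.571, in counts too sparse to read such a value.

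Of 6 receptor and ligand pairs, 1 was correlated over the 40 tumors after adjustment over 12 tests. Cd28 and Cd80 had r = −0.518 and rho = −0.489, with adjusted permutation p-values of 0.00792 and 0.00912, so the receptor was lower where this ligand was higher. Without libraries 44 and 77 the values were r = −0.489, rho = −0.45, and within libraries 41 to 60 and 61 to 80 r was −0.458 and −0.598, with adjusted permutation p-values of 0.185 and 0.056. Cd28 with Cd86 had r = 0.332, rho = 0.213 (adjusted permutation p = 0.143 and 0.279), and Icos with Icosl r = 0.0729, rho = −0.0962 (0.655 and 0.606). Cd40 with Cd40lg had r = 0.243, rho = 0.3 (0.238 and 0.182), Cd27 with Cd70 r = −0.107, rho = −0.103 (0.606 and 0.606), and Tnfsf9 with Tnfrsf9 r = 0.238, rho = 0.267 (0.238 and 0.229). After the group means were taken out, Tnfsf9 and Tnfrsf9 had r = 0.493, rho = 0.463, with an adjusted permutation p of 0.0102 for each.

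To ask whether 4 genes of T cells, 3 receptors and CD40 ligand, differed beyond the amount of T cell RNA, the mean log2 CPM of Cd3d, Cd3e and Cd3g was subtracted in each tumor from Cd28, Icos, Cd40lg and Cd27. That mean itself was 2.77 ± 0.64 in control tumors (SD, n = 5), 1.70 ± 1.09 with anti-PD-1 and 3.15 ± 1.34 with the WT combination. None of the 28 differences from the control passed an adjusted p of 0.05 in the exact permutation test, whose smallest unadjusted p is 0.00794. For Cd40lg, with 0 to 6 reads per tumor and a prior count of 2, the subtraction mostly returns the Cd3 mean with its sign turned. Its tests are among the 28 but cannot answer the question. Over 28 tests a single difference cannot reach an adjusted p below 0.222, and 5 at the smallest p would be needed to pass. Cd27 was higher per T cell RNA with anti-PD-1 by 0.52 (SE 0.20), 4 of 5 mice exceeding the whole control group, with an exact p of 0.0238 and an adjusted p of 0.389. With the FcD combination it was higher by 0.44 (SE 0.20), again with 4 of 5 mice above, an exact p of 0.0476 and an adjusted p of 0.389. For Icos with the WT combination, the difference was 0.75 (SE 0.39), with an exact p of 0.0873 and an adjusted p of 0.413. With Lck and Cd2 in place of the Cd3 genes, the value of Cd27 with anti-PD-1 was −0.21. That with the FcD combination was then 0.15, with an exact p of 0.421. With the Cd3 genes, leaving out any of 3 of the 10 mice raised the exact p of Cd27 with anti-PD-1 above 0.05. For the FcD combination any of 8 did so.

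Other genes of the same pathways were examined as 4 lists. Of the 7 tested genes of the wider B7 and CD28 family, 4 were higher with the WT combination than in the control (unadjusted p under 0.05), 2 with the FcD combination and 0 with the anti-TGF-β combination, and none was lower. Their median log2 fold changes were 0.91, 0.60 and 0.32. Of 10 other TNF family costimulators, 4, 3 and 2 were higher in the same order, with medians of 0.63, 0.39 and 0.00. Of 12 genes of other costimulatory pairs, 5, 1 and 0 were higher and, with the anti-TGF-β combination, 1 was lower. Of 22 signal mediators, 10, 5 and 0 were higher and 1 was lower with each. The median log2 fold changes of the last 2 lists were 0.85, 0.49 and 0.14, and 0.20, 0.15 and 0.05. Library 77 held the highest sum of 3 of these 4 lists. Without it, the genes higher with the WT combination were 2 of 7, 1 of 10, 0 of 12 and 1 of 22, with medians of 0.15, 0.42, 0.24 and 0.08, and 2 signal mediators were lower. No gene of these lists passed an adjusted p of 0.05 in edgeR, and none of their counts was tested against other genes. Over all 14760 genes the shares with an unadjusted p under 0.05 were those given above, and the median log2 fold changes were near 0.

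Genes of these lists with an unadjusted p under 0.05 in the same direction in at least 2 combinations are named, with their log2 fold changes against the control in the WT (library 77 included), FcD and anti-TGF-β combinations. The ligands of PD-1 had 1.31, 1.27 and 0.58 (Cd274, PD-L1) and 1.93, 2.17 and 1.15 (Pdcd1lg2, PD-L2). Tnfrsf18, which encodes the receptor GITR, had 0.78, 0.73 and 0.73, Tnfrsf8 (CD30) had 0.95, 0.84 and 0.19, Tnfrsf14 (HVEM) had 0.95, 0.88 and −0.07 and Slamf1 had 1.85, 1.61 and 1.16. Of the signal mediators, Malt1 had 0.62, 0.59 and 0.05, Vav1 1.07, 0.80 and 0.44, Birc3 0.58, 0.54 and 0.20, Rel 0.48, 0.45 and −0.09 and Grb2 0.47, 0.33 and 0.29. Nfkb2, of the noncanonical NF-κB pathway that CD40 engages, was lower, at −0.42, −0.30 and −0.10.

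Ctla4, the inhibitory receptor for Cd80 and Cd86, had 1.72, 1.22 and 0.29, with unadjusted p-values of 0.0169, 0.0873 and 0.687 in edgeR. Its reads were few. Library 77 held 69 against 9 to 33 in the other mice of the WT combination. Library 44 held 47 against 8 to 19 in the others of the FcD combination. Tnfrsf9, the receptor of the Tnfsf9 product, had 0.37, 0.21 and −0.08, with unadjusted p-values of 0.117, 0.365 and 0.717. The marker genes named by the same rule were Foxp3 (1.49, 1.73 and 1.56), Il2ra, Cd4, Klrb1c, Adgre1, Cd68, Clec9a, Xcr1, Csf3r, Cxcr2, S100a9 and Cdh1, all higher. By list, the genes higher in the WT, FcD and anti-TGF-β combinations were 3, 1 and 1 of 9 T cell genes, 3, 2 and 1 of 4 regulatory T cell genes, 2, 0 and 2 of 4 NK cell genes, 2, 4 and 0 of 8 dendritic cell genes. They were also 1, 3 and 3 of 4 neutrophil genes, 1, 4 and 0 of 5 epithelial genes, 0, 0 and 0 of 4 skeletal muscle genes, 0, 4 and 0 of 4 adipocyte genes, 0, 0 and 2 of 2 lymph node stroma genes. Of all 14760 genes, 1946, 1582 and 1253 were higher in these combinations, so counts such as 1 of 9 are near the background. Of these lists 1 gene was lower, a dendritic cell gene with the WT combination. Without library 77, the WT combination had 0 of 9 T cell genes, 2 of 4 regulatory T cell genes, 0 of 4 NK cell genes and 0 of 4 neutrophil genes higher. Without the libraries with lymph node RNA, the counts in the same order were 2, 0 and 0 of 5 epithelial genes, 1, 4 and 3 of 4 neutrophil genes, 0, 4 and 1 of 4 adipocyte genes, and 0 of 1 lymph node stroma gene in each.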

How the data were processed

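RNA of tumors from 40 mice was measured by RNA-seq of stranded mRNA libraries. The authors aligned reads to GRCm38 with STAR 2.5.3a, used SAMtools 1.6, and deposited raw counts per gene from HTSeq 0.9.1. The strand setting and annotation version are not given in the sources used here. Counts from 11931730 to 20680548 per library were used as deposited. No 2 libraries were identical. The labels give groups but no replicate numbers.

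The genes of interest and all lists were chosen with earlier results of these data known. Genes were kept by filterByExpr in edgeR 4.0.16 (R 4.3.3), scaled by TMM, and fitted in 1 robust quasi-likelihood model over 8 groups, with Benjamini-Hochberg adjustment over 14760 genes. CPM are counts scaled by the TMM library size, and log2 CPM use a prior count of 2. SE are of log2 fold changes. P-values measure the spread between mice. The relative levels were tested by exact 2-sided permutation, and correlations by 100000 permutations. DESeq2 1.42.0, limma 3.58.1 (voom), other scaling, filter, samples, covariate and prior count, and leaving out each mouse were alternatives. Correlations with marker lists and between genes, the fit without 6 libraries and the list counts without library 77 or 52 were added after values were seen. The model code was tested on simulated data. All 10 genes are described; genes of other lists are named for an unadjusted p under 0.05 in the same direction in at least 2 of the 3 combinations, or as partners of the 10 (Ctla4, Tnfrsf9). Gene positions and exon lengths are from GENCODE M21 (GRCm38), which may not be the authors' version. Spreadsheet dates replaced 27 gene names, none of the 10.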

Additional observations from a re-analysis of the deposited data

Results flagged for a closer look

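In 13 of 80 groups of 5 mice (10 genes in 8 groups), the highest or lowest mouse stood apart from the other 4 by a gap larger than Dixon's 95% critical value of 0.71 of the range. Chance flags about 1 in 20 groups of continuous values, but a group with 1 read in all, as in 3 of the 13, is always flagged, so the 13 are not read against that rate. Library 77, of the WT combination, held the highest value of Cd27 (16.2 CPM, next 4.49 CPM) and of Icosl (14.8 CPM, next 8.54 CPM). Library 48, of anti-TGF-β alone and with lymph node RNA, held the highest Icos (1.72 CPM, next 0.304 CPM) and Cd27 (9.12 CPM, next 3.37 CPM). Library 53, of the anti-TGF-β combination, held the highest Icos (1.59 CPM) and Cd28 (0.758 CPM, 10 reads).

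With anti-PD-1 alone, library 47 had the lowest Cd86 (7.09 CPM, next 18 CPM) and library 52 the highest Cd27 (5.45 CPM, next 2.14 CPM). With anti-GARP:TGF-β1 WT alone, library 65 had the lowest Icos (0.232 CPM, 3 reads). The 4 others rest on 1 to 6 reads: Cd40lg at 0.398 CPM in library 80 of the FcD combination and at 0.0618 CPM in library 46 of the control, and Cd70 at 0.0708 CPM in library 61 of anti-GARP:TGF-β1 FcD and at 0.0756 CPM in library 62 of the anti-TGF-β combination.

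The effect of anti-PD-1 differed with and without the WT mAb for Icos, by 2.28 on the log2 scale (unadjusted p = 0.0233, adjusted p = 0.483 in edgeR). With and without the FcD mAb it differed for Cd40, by 0.83 (unadjusted p = 0.0396, adjusted p = 0.787 in edgeR). Neither passed the adjusted threshold, and the values of single mice are given above.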

How the results depend on the processing

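No paired analysis was possible because the labels carry no replicate numbers, which were given in accession order only. Counts below are of the 8 tested genes, and include Cd40lg and Cd70 where no filter was used and in DESeq2. Leaving out each mouse in turn gave, at an unadjusted p under 0.05 against the control, 1 to 4 genes with the WT combination (2 with all mice), 1 to 3 with the FcD combination (1), 1 to 2 with the anti-TGF-β combination (1) and 0 to 1 with anti-TGF-β (0). Against anti-PD-1 it gave 0 to 5 (3), 0 to 6 (3) and 0 to 4 (2) in the same order, without library 77 the 0 of the first and without library 52 the 6 and the 4; the count with the FcD combination moved by over 1.5 times for 22 of the 40 mice. Interactions gave 0 to 2 (WT, 1) and 0 to 4 (FcD, 1), and the F test 1 to 3 (2). At an adjusted p under 0.05, where all mice gave 0, it was 0 to 1 with the anti-TGF-β combination against the control, 0 to 1 with the WT combination against anti-PD-1 and 0 to 2 in the F test. Without the filter, the counts were 1 with anti-TGF-β, 2 with the FcD and 2 with the anti-TGF-β combination, 1 with the FcD combination against anti-PD-1, and 2 and 1 for the WT and anti-TGF-β interactions. DESeq2 gave 2 with the FcD combination, 2 and 1 for the same interactions, and, after adjustment, 1 with the anti-TGF-β combination and 2 in its test over groups. Limma gave 1 with the WT combination, 0 for the WT interaction and 1 in the F test. The library part as a covariate gave 1 with the FcD combination against anti-PD-1. With only the groups compared there were 2 each with the FcD and anti-TGF-β combinations, 1 each with the WT and FcD combinations against anti-PD-1, and 1 after adjustment with the FcD combination. Without the libraries with lymph node RNA there were 1 with anti-PD-1, 2 with the FcD combination, and 0 for the FcD and anti-TGF-β combinations against anti-PD-1 and the FcD interaction. The correlation of Cd28 and Cd80 was −0.458 and −0.598 within the library parts (adjusted permutation p = 0.185 and 0.056), that of Tnfsf9 and Tnfrsf9 was 0.493 within groups (0.0102) and that of Cd40 and Cd40lg 0.491 without libraries farthest from the median (0.0107). Cd27 relative to T cell RNA with anti-PD-1 was −0.213 with Lck and Cd2 (exact p = 0.294) and 0.52 with the Cd3 genes. The causes were not tested. DESeq2 size factors changed none of these counts by over 1.5 times. Depth limits Cd28, Cd40lg and Cd70, with 205, 48 and 30 reads.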
